A study of Rattus norvegicus with 33 samples.

Results

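Genes for protein folding and stress handling in the endoplasmic reticulum (ER) were examined in rat soleus, a slow postural muscle. The genes, 35 in number, were chosen by name, with earlier results of these data known. They were 9 chaperones and their partners, 6 lectins and disulfide isomerases, 6 sensors and transcription factors, 7 genes for ER-associated degradation and 7 subunits of the translocon and its partners. Of these, 32 had a row with that single gene symbol, 1 row each, among 14506 genes read this way on the arrays. Ern1, Edem1 and Derl2 were not analysed here.

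The animals were 33 female Wistar rats, 1 array each, in 11 groups of 3. SCI-ES animals had a complete spinal cord transection at 9 weeks of age, a stimulator implanted 14 weeks later together with tenotomy of the left gastrocnemius, and electrical stimulation (ES) of 1 hour a day, begun 16 weeks after transection, for 1, 3 or 7 days. SCI animals had the same transection, implantation surgery and tenotomy, but no stimulator, and their soleus was taken 21 days after that surgery. Sham-SCI animals had, by the labels, a laminectomy without transection and no gastrocnemius cut, and whether they had the later implantation surgery is not stated in the sources used here. GA animals, 22 to 23 weeks old and with an intact spinal cord, had the distal insertion of the left gastrocnemius cut (gastrocnemius ablation, given as bilateral in the series' design text), which overloads the soleus, and were studied at 1, 3 and 7 days. Sham-GA animals of the same ages and days had that surgery without the cut. In SCI versus Sham-SCI, transection and tenotomy cannot be told apart, and at 1 and 3 days of ES less time had passed since implantation than in SCI.

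All levels are the authors' log2 expression values, in which 1 unit is a 2-fold difference. Differences were fitted with limma over all genes with a mean of at least 3, and a log2 fold change is the mean of the group named first minus that of the other. A gene passed the test, or was called, when its p, adjusted by Benjamini-Hochberg over all genes, was under 0.05 and its difference reached 1.5 fold, and each adjusted p given here is from limma. Slow-fiber markers of the soleus were high on all arrays, with Myh7, the slow myosin heavy chain, at 11.27 to 13.66 and slow troponin T (Tnnt1) at 10.88 to 13.23, where the whole table ran from 2.10 to 14.26. Fiber type was not uniform, with the mean of 9 fast myofiber markers at 12.42 to 12.98 in SCI, 9.92 to 13.06 in Sham-SCI and 7.47 to 10.06 in GA 1 day. Over all genes, each taken as the deviation from its mean over the experiment, 4 of the 18 arrays of the GA experiment and 4 of the 15 of the SCI experiment correlated better with the group they were compared with than with their own. Among them Sham-GA 3 days replicate 2 had a mean r of 0.32 with GA 3 days and -0.47 with its own group. Sham-GA 1 day replicate 1 had a mean r of 0.44 with GA 1 day and -0.13 with its own group, and GA 3 days replicate 2 had -0.08 with its own group and 0.17 with Sham-GA 3 days. The other 5 were Sham-GA 7 days replicate 3 (0.61 with GA 7 days, 0.36 with its own group), SCI replicate 1, SCI-ES 3 days replicate 2 and SCI-ES 7 days replicates 2 and 3. Without any 1 of these 5, no ER gene was called in a comparison of a treated group with Sham-SCI, SCI or Sham-GA arrays.

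The ER takes in proteins made for secretion, membranes and the extracellular matrix through the Sec61 channel, folds them with chaperones such as BiP (Hspa5) and with disulfide isomerases, and returns those that do not fold to the cytosol for degradation. When unfolded protein builds up, the sensors IRE1 (Ern1), PERK and ATF6 start the unfolded protein response, in which spliced XBP1 and cleaved ATF6 raise chaperone and translocon genes, and ATF4 and CHOP (Ddit3) serve the PERK branch. In muscle, fibroblasts that secrete the extracellular matrix use this machinery heavily, while the fibers hold a specialized form of the ER, the sarcoplasmic reticulum.

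Promoters of several of these genes carry an ER stress response element (ERSE), bound by ATF6 and XBP1 together with NF-Y, and these are shown because they are a sequence feature shared by genes of different roles. The RefSeq promoters (build GRCr8, 250 bases before to 50 bases after the gene start) held 28 of the 35 genes. The exact ERSE letters, CCAAT and CCACG with any 9 bases between them, searched on both strands, occurred in 0.0657% of 33469 promoters and in 8 of these 28 genes (Calr, Canx, Creld2, Derl3, Dnajc3, Hsp90b1, Hspa5 and Xbp1). The related ERSE-II letters, ATTGG and CCACG with any 1 base between them, occurred in 0.0508% of all promoters and in 3 of the 28 (Dnajb11, Herpud1 and Hyou1). TGACGTGG, an XBP1 motif (UPRE), was found in 0.595% of promoters and among these genes in Hyou1, overlapping an ERSE-II match. TGATGNAA, an ATF4 motif, was found in 3.98% of promoters and here in Herpud1 and Trib3. Windows of 70 bases, read 5′ to 3′ on the gene's strand, are given with the fixed letters of the match in capitals; in Creld2 and Calr the match is on the opposite strand, so that the capitals read CGTGG before ATTGG.
Hspa5 (chr3:38452946-38453015, plus strand): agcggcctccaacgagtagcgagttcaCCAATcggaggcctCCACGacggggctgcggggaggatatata
Hsp90b1 (chr7:23012425-23012494, minus strand): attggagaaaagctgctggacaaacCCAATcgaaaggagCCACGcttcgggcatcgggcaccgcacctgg
Creld2 (chr7:121789214-121789283, plus strand): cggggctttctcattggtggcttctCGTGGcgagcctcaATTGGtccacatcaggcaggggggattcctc
Dnajc3 (chr15:102432509-102432578, plus strand): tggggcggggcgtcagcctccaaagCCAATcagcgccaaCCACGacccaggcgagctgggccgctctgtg
Calr (chr19:40213117-40213186, plus strand): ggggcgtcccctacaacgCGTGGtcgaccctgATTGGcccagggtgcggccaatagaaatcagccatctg
Xbp1 (chr14:84604533-84604602, plus strand): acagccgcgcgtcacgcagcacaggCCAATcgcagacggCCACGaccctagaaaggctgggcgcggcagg
Dnajb11, ERSE-II (chr11:91672800-91672869, minus strand): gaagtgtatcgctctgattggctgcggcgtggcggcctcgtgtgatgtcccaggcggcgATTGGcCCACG
Herpud1, ERSE-II (chr19:10614791-10614860, minus strand): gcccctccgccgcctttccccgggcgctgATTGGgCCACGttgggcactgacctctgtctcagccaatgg
A match describes the letters and not a bound site.

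Of the 7 comparisons of a treated group with Sham-SCI, SCI or Sham-GA arrays, GA against Sham-GA at 3 days had the median furthest from 0 in these genes. Of the 32 genes, 27 had a log2 fold change above 0, with a median of 0.56, where over all 14451 genes tested 44.8% lay above 0 and the median was -0.03. No gene of the table passed the test at 3 days (0 of 14451, background 0%), and so none of the 32 was called, with adjusted p from 0.29 to 0.93. An unadjusted p under 0.05 was found for 20 of the 32, against 16.5% of all genes. Chaperones, lectins and isomerases and the translocon had medians of 0.66, 0.64 and 0.81, the sensors and factors -0.11 and the degradation genes 0.14.

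**Figure D1:**
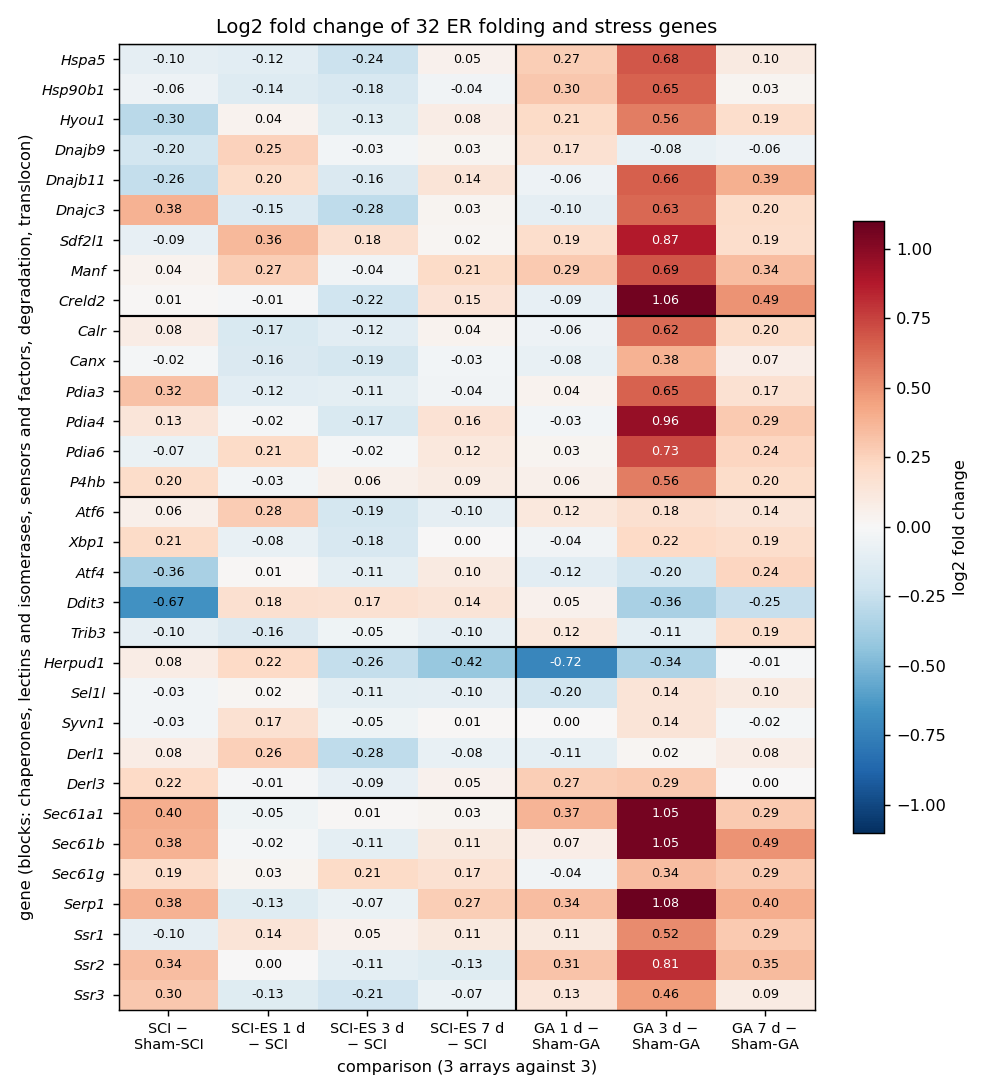
Log2 fold change of the 32 genes (rows, in role blocks) in 7 comparisons of 3 arrays against 3 (columns), with the value in each cell and red for higher in the group named first. GA 3 days minus Sham-GA 3 days is the column with the strongest red, from Serp1 at 1.08 down to Ddit3 at -0.36.

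Hspa5, the main Hsp70 chaperone of the ER lumen (BiP), was at 12.53, 12.03 and 12.57 in GA 3 days and at 11.54, 12.17 and 11.37 in Sham-GA 3 days. The groups overlapped through replicate 2 of both, which was the lowest GA array and the highest Sham-GA array (log2 fold change 0.68, SE 0.24, adjusted p = 0.29). Creld2, a secreted ER stress protein with isomerase activity, had the largest difference of the chaperone group, at 9.07, 8.14 and 9.17 in GA 3 days and 7.23, 8.48 and 7.50 in Sham-GA 3 days (1.06, SE 0.40, adjusted p = 0.29). In Creld2 the same pair of arrays overlapped, while in the following genes the groups were apart. Dnajb11, a J-domain partner of BiP, was at 9.48, 8.91 and 9.23 in GA 3 days, all above the 8.47, 8.83 and 8.34 in Sham-GA 3 days (0.66, SE 0.25). Dnajc3, a J-domain protein that also restrains PERK signaling, stood at 9.40, 9.15 and 9.35 in GA 3 days, again above all 3 Sham-GA arrays at 8.48, 8.92 and 8.62 (0.63, SE 0.22). Neither passed the test. The other chaperones with values above 0 were Sdf2l1, a partner of Dnajb11 (0.87), the secreted factor Manf (0.69), Hsp90b1, the Hsp90 of the ER (0.65), and Hyou1, a large Hsp70 relative that helps BiP exchange nucleotide (0.56). Dnajb9, a BiP partner that restrains IRE1, was at -0.08.

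The lectin chaperones calreticulin (Calr, 0.62) and calnexin (Canx, 0.38) and the disulfide isomerases all had values above 0. Pdia4 was at 10.39, 9.84 and 10.28 in GA 3 days and at 8.82, 9.85 and 8.97 in Sham-GA 3 days (0.96, SE 0.27, adjusted p = 0.29). Again GA replicate 2 and Sham-GA replicate 2 met, at almost the same level. Pdia6, an isomerase that also attenuates IRE1 and PERK signaling, was at 10.64, 10.18 and 10.51 in GA 3 days and at 9.58, 10.13 and 9.44 in Sham-GA 3 days (0.73, SE 0.23, adjusted p = 0.29), with no overlap. Pdia3, which works with the lectins, was at 0.65 and P4hb, the most general isomerase and the beta subunit of prolyl 4-hydroxylase, at 0.56.

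In the translocon group, Serp1, a small membrane protein that stabilizes newly made membrane proteins at the channel, was at 11.11, 10.60 and 11.09 in GA 3 days and at 9.06, 10.90 and 9.58 in Sham-GA 3 days (1.08, SE 0.37, adjusted p = 0.29). Sec61b, a channel subunit, was at 10.09, 9.41 and 10.13 in GA 3 days and at 8.24, 9.72 and 8.52 in Sham-GA 3 days (1.05, SE 0.34). Sec61a1, the pore itself, was at 11.11, 10.26 and 11.32 in GA 3 days and at 9.02, 11.12 and 9.39 in Sham-GA 3 days (1.05, SE 0.43). In each of these 3 genes Sham-GA replicate 2 lay above GA replicate 2, while the other 2 Sham-GA arrays lay below all 3 GA arrays. Of the translocon-associated proteins, Ssr2 was at 0.81, Ssr1 at 0.52 and Ssr3 at 0.46, and the third channel subunit Sec61g at 0.34.

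The stress sensors and their factors had smaller values, on both sides of 0. Xbp1, the factor activated by splicing, was at 11.41, 11.35 and 11.60 in GA 3 days and at 11.11, 11.46 and 11.13 in Sham-GA 3 days (0.22, SE 0.18, adjusted p = 0.51). These arrays read the whole transcript cluster and not its splicing. Atf4, the factor translated under PERK signaling, was at 10.18, 10.60 and 9.90 in GA 3 days and at 10.60, 10.15 and 10.52 in Sham-GA 3 days (-0.20, SE 0.18, adjusted p = 0.54). Ddit3 (CHOP), a target of Atf4 tied to cell death, had the lowest value of all 32 genes, at 7.81, 8.31 and 7.57 in GA 3 days and 8.48, 7.82 and 8.47 in Sham-GA 3 days (-0.36, SE 0.27, adjusted p = 0.46). Here too replicate 2 of each group lay on the side of the other group. Atf6 was at 0.18 with all 3 GA arrays above all 3 Sham-GA arrays, and the pseudokinase Trib3, another Atf4 target, at -0.11.

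Among the degradation genes, Herpud1, which organizes the ubiquitin ligase complex at the ER membrane, was at 9.15, 9.62 and 9.13 in GA 3 days and at 9.68, 9.36 and 9.87 in Sham-GA 3 days (-0.34, SE 0.18, adjusted p = 0.33). The ligase Syvn1 (HRD1) and its adaptor Sel1l were both at 0.14, and the derlins Derl1 and Derl3, membrane proteins of the export channel, at 0.02 and 0.29. In 6 of the 32 genes (Dnajb11, Dnajc3, Canx, Pdia6, Atf6 and Ssr3) all 3 GA arrays lay above all 3 Sham-GA arrays at 3 days, against 5.86% of all genes, and in none did they lie below, against 7.64%.

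**Figure D2:**
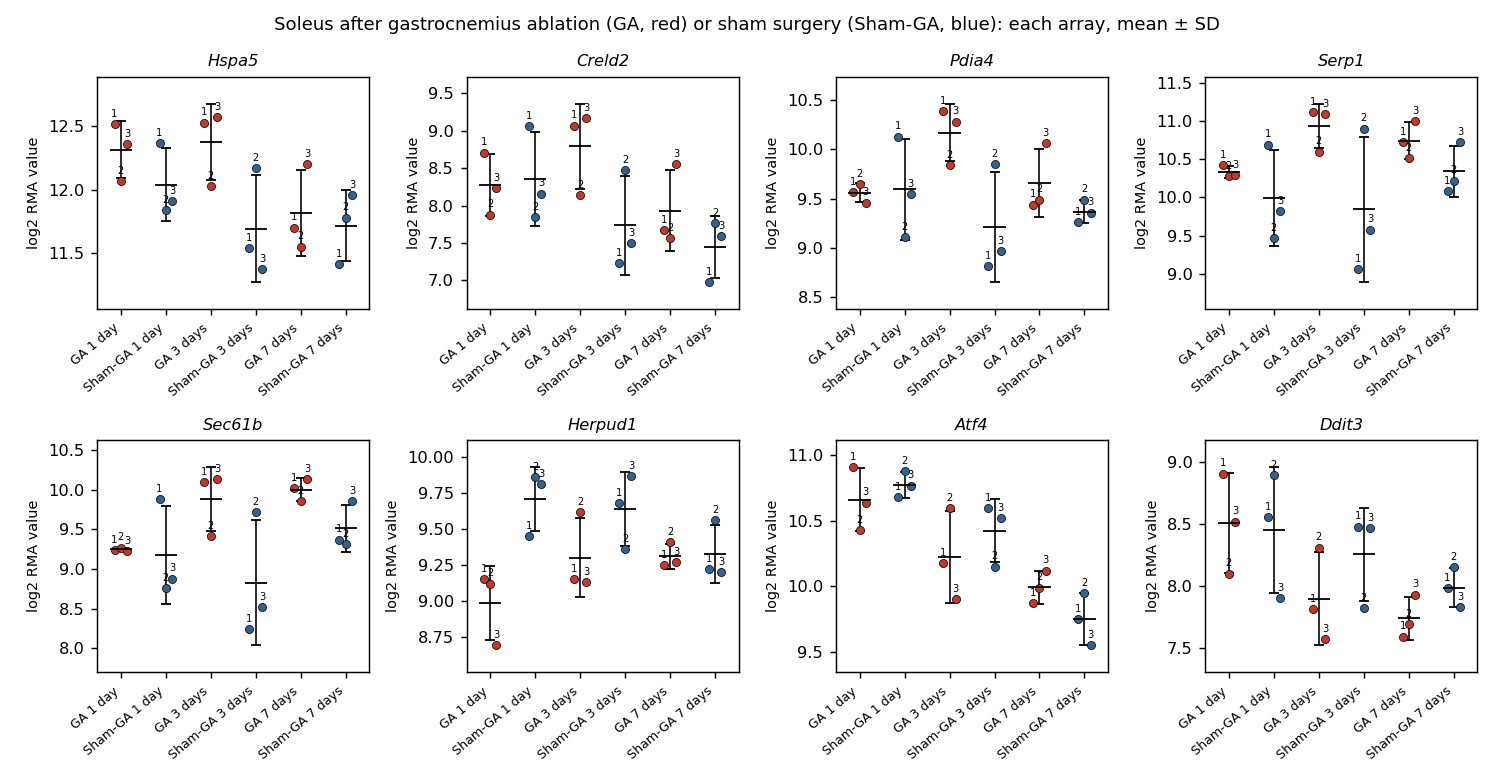
Log2 RMA values of 8 genes on each of the 18 arrays of the GA experiment, GA in red and Sham-GA in blue, with replicate numbers, means and SD bars (n = 3). At 3 days, replicate 2 of Sham-GA sits near the GA arrays in Hspa5, Creld2, Pdia4, Serp1 and Sec61b.

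The calls at 3 days turned on 1 array, Sham-GA 3 days replicate 2. It was the highest Sham-GA array of its day in 25 of the 32 genes, and GA 3 days replicate 2 was the lowest GA array in 22. Without Sham-GA 3 days replicate 2, 17 of the 32 genes passed the test, all higher in GA, where 835 of all genes (5.78%) did so. They were Hspa5 (0.92, adjusted p = 0.03), Hsp90b1, Hyou1, Sdf2l1, Manf and Creld2 (1.43, adjusted p = 0.041) of the chaperones, Calr, Pdia3, Pdia4 (1.28, adjusted p = 0.019), Pdia6 and P4hb of the lectins and isomerases, and Sec61a1 (1.69, adjusted p = 0.016), Sec61b (1.49, adjusted p = 0.018), Serp1 (1.61, adjusted p = 0.016), Ssr1, Ssr2 and Ssr3 of the translocon. No sensor, factor or degradation gene passed, with Xbp1 at 0.33 (adjusted p = 0.26), Atf4 at -0.33 (adjusted p = 0.23), Ddit3 at -0.58 (adjusted p = 0.17) and Herpud1 at -0.48 (adjusted p = 0.099). Leaving out an array that lies near the other group widens the difference by construction. Without Sham-GA replicate 1, 0 of the 32 passed and 6 had an unadjusted p under 0.05, against 4.15% of all genes, and without Sham-GA replicate 3 these were 0 and 11, against 7.13%. Without GA replicate 2 alone, 0 passed and 24 had an unadjusted p under 0.05, against 23.8% of all genes, with Hspa5 at 0.86. With both arrays numbered 2 left out, 21 genes passed higher in GA, where 9.39% of all genes did, and Herpud1 passed lower, where 8.32% did (-0.64, adjusted p = 0.025).

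**Figure D3:**
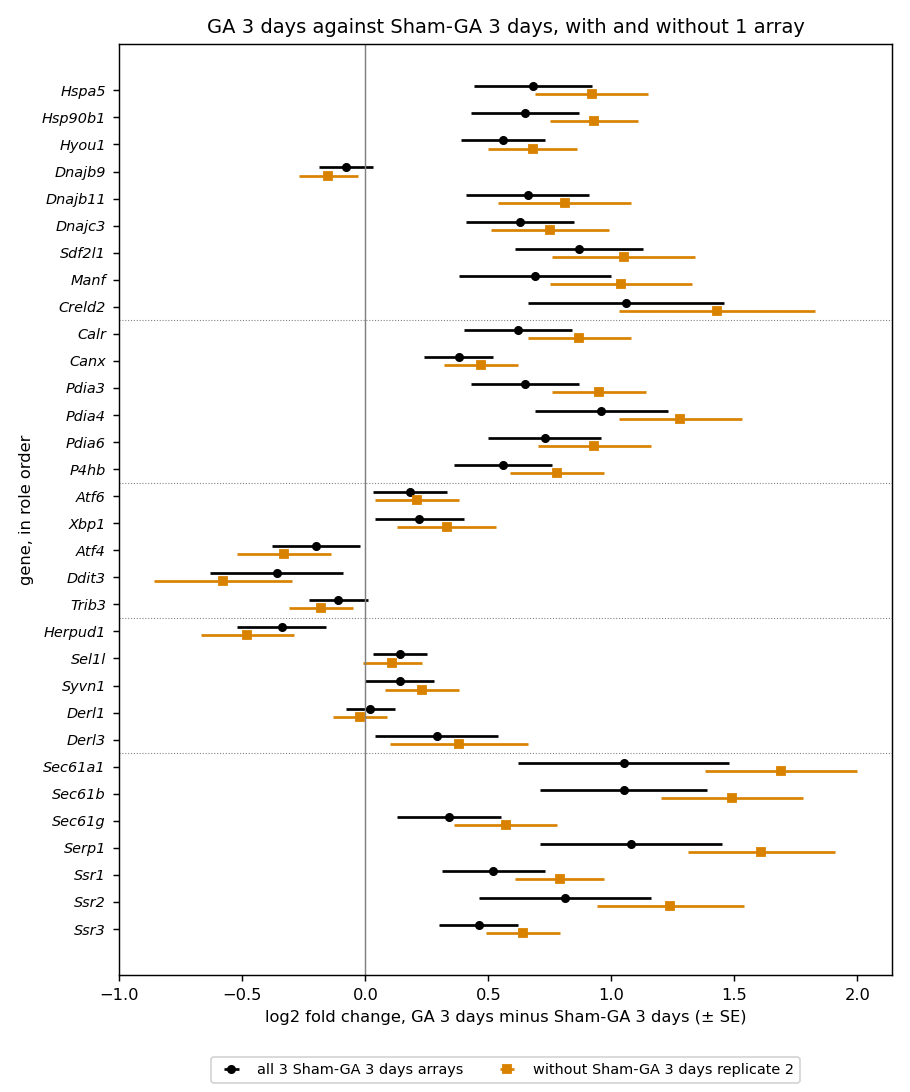
Log2 fold change with its SE for GA 3 days minus Sham-GA 3 days in the 32 genes, with all 6 arrays (black circles) and without Sham-GA 3 days replicate 2 (orange squares). Removing that array moves the chaperones, isomerases and translocon genes to the right, Sec61a1 to 1.69, and Ddit3 and Herpud1 to the left.

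Markers of several other cell types moved with these values at 3 days. The mean of 11 macrophage markers was at 10.05, 9.94 and 10.34 in GA 3 days and at 8.50, 10.10 and 9.08 in Sham-GA 3 days, and all 11 had log2 fold changes above 0 (median 0.84). The mean of 12 fibroblast markers was at 10.64, 10.15 and 10.33 in GA 3 days and at 8.89, 10.34 and 9.30 in Sham-GA 3 days, with 11 of 12 above 0 (median 1.19), so that Sham-GA replicate 2 was within the GA range in both lists. None of either list passed the test with all arrays. Without Sham-GA replicate 2, 6 of the 11 and 8 of the 12 passed, all higher in GA, where 5.78% of all genes did so. The mean of 9 endothelial markers was at 9.17, 8.44 and 8.91 in GA 3 days and at 8.34, 9.06 and 8.41 in Sham-GA 3 days. That of 7 satellite cell and regenerating fiber markers was at 8.77, 8.22 and 9.68 in GA and at 8.47, 8.94 and 8.35 in Sham-GA. Here too Sham-GA replicate 2 was within the GA range, and without it Eng (0.94) and Myh3 (1.69) passed, higher in GA. The mean of 8 slow myofiber markers per array ran from 12.55 to 12.87 in GA 3 days and from 12.85 to 13.13 in Sham-GA 3 days. The 7 plasma cell and B cell markers had a median log2 fold change of 0.00. The part of these cells in the ER gene values was not tested, and in whole muscle a change in the number of cells of a type and a change in RNA per cell cannot be told apart.

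**Figure D4:**
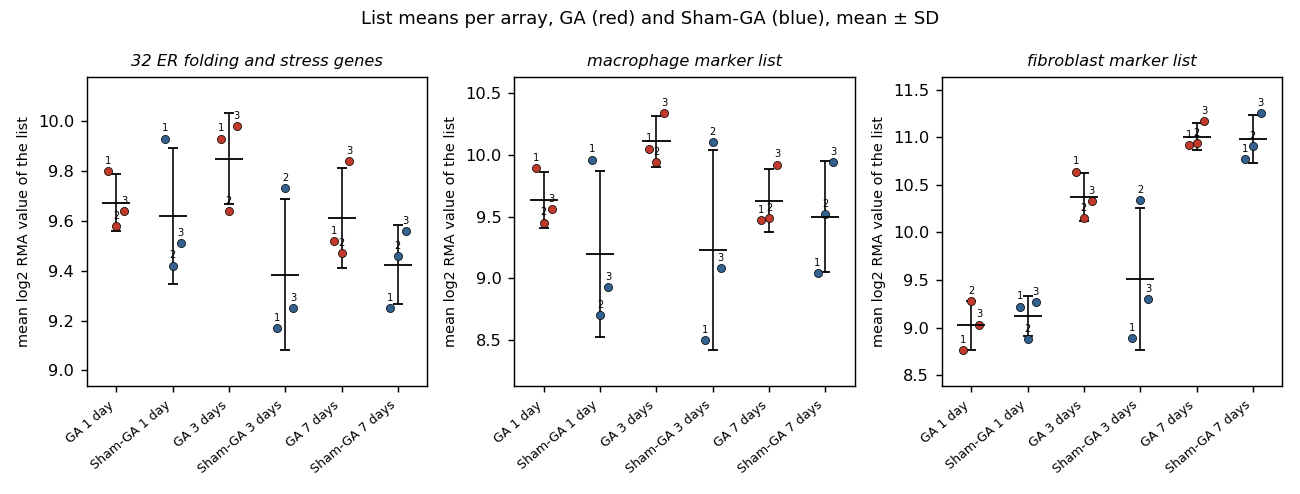
Mean log2 RMA value per array over the 32 ER genes, 11 macrophage markers and 12 fibroblast markers in the GA experiment, GA in red and Sham-GA in blue, with replicate numbers, means and SD bars (n = 3). At 3 days replicate 2 of Sham-GA is the highest Sham-GA array in all 3 panels, and at 7 days the fibroblast means of GA and Sham-GA both lie between 10.77 and 11.26.

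At 1 day the ER genes of GA and Sham-GA were close, with a median difference of 0.05 (log2) in a range from -0.72 to 0.37. Herpud1 had the lowest value, at 9.15, 9.12 and 8.69 in GA 1 day and at 9.45, 9.86 and 9.81 in Sham-GA 1 day, with no overlap (-0.72, SE 0.18, adjusted p = 0.12). It was not called, and neither was any other of the 32 genes, where 8 of all genes were (background 0.0554%). It was also the 1 gene of the 32 with an unadjusted p under 0.05, against 13.7% of all genes. Sec61a1 was at the upper end (0.37), followed by Serp1 (0.34), while Sel1l was next to Herpud1 at the lower end (-0.20). Hspa5 was at 0.27 (adjusted p = 0.65), Ddit3 at 0.05, Xbp1 at -0.04 and Atf4 at -0.12. All 3 GA arrays lay above all Sham-GA arrays in 1 gene, Dnajb9 (0.17), against 5.56% of all genes, and below in Herpud1 alone, against 11.1%. Without Sham-GA 1 day replicate 1, which is the Sham-GA array nearest to GA, Herpud1 passed the test (-0.85, SE 0.19, adjusted p = 0.049), where 0.415% of all genes passed in that direction, and no other of the 32 did. That array held the Sham-GA value of Herpud1 nearest to GA (9.45), so that leaving it out widens this difference by construction. The macrophage marker mean was at 9.89, 9.45 and 9.56 in GA 1 day and at 9.96, 8.70 and 8.93 in Sham-GA 1 day, and the mean of 10 neutrophil markers at 7.12, 6.40 and 6.95 in GA 1 day and 6.76, 5.64 and 5.43 in Sham-GA 1 day. Sham-GA replicate 1 was thus the highest Sham-GA array in both lists, and their part in the Herpud1 values was not tested.

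At 7 days 28 of the 32 genes had values above 0, with a median of 0.19, where 50.2% of all genes lay above 0 and the median was 0.00. None was called of the 32 or of all 14451 genes (background 0%), and none of the 32 had an unadjusted p under 0.05, against 2.63% of all genes. Sec61b and Creld2 were the highest, both at 0.49, and Ddit3 (-0.25) and Dnajb9 (-0.06) the lowest. Hspa5 was at 0.10, Atf4 at 0.24 and Xbp1 at 0.19. The 3 GA arrays lay above the 3 Sham-GA arrays in Dnajb11, Trib3 and Ssr1, against 4.86% of all genes. GA 7 days replicate 3 was the highest of its group in 30 of the 32 genes. The fibroblast and macrophage markers had medians of 0.03 and 0.12 at 7 days, so that GA and Sham-GA were close in these lists.

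Averaged over the 3 days, the GA effect was above 0 in 28 of the 32 genes (median 0.26, against -0.01 over all genes), highest in Serp1 (0.61) and Sec61a1 (0.57) and lowest in Herpud1 (-0.36) and Ddit3 (-0.19). None passed the test (background 0%), with adjusted p from 0.17, and 17 had an unadjusted p under 0.05, against 19.3% of all genes. Hspa5 was at 0.35 (SE 0.14, adjusted p = 0.21), Xbp1 at 0.13 and Atf4 at -0.02. Without Sham-GA 3 days replicate 2, Sec61a1, Sec61b, Serp1 and Ssr2 passed, higher in GA, where 1.85% of all genes did, and without Sham-GA 1 day replicate 1, Sec61b and Serp1, where 1.2% did. With both left out, 7 genes passed, those 4 together with Creld2, Manf and Pdia4, where 4.91% of all genes passed in that direction. Both arrays lie near the GA arrays and were chosen after the values were seen, so that leaving them out widens the difference by construction. The GA effect at 3 days minus that at 1 day had a median of 0.40, with Creld2 (1.14, SE 0.57) and Pdia4 (0.99) highest and Ddit3 (-0.41) and Dnajb9 (-0.25) lowest. Hspa5 was at 0.41, Xbp1 at 0.25 and Atf4 at -0.08 in this difference. At 7 days minus 1 day the median was 0.13, with Herpud1 (0.71) and Creld2 (0.57) highest and Ddit3 (-0.31) and Hsp90b1 (-0.27) lowest, Hspa5 at -0.18, Xbp1 at 0.23 and Atf4 at 0.36. Neither difference passed in any of the 32 genes or in any other gene tested (background 0% each), and an unadjusted p under 0.05 was found for 6 genes at 3 days and 1 at 7 days, against 9.67% and 8.26% of all genes.

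Within the GA and the Sham-GA animals, Atf4 and Hyou1 fell between 1 and 7 days after surgery, a comparison added after these values were seen. Atf4 was at 10.91, 10.43 and 10.64 in GA 1 day, 10.18, 10.60 and 9.90 in GA 3 days and 9.87, 9.99 and 10.12 in GA 7 days, lower on all 3 arrays at 7 days than at 1 day (7 days minus 1 day, -0.67, SE 0.18, adjusted p = 0.021). In Sham-GA it was at 10.68, 10.88 and 10.77 at 1 day, 10.60, 10.15 and 10.52 at 3 days and 9.75, 9.95 and 9.55 at 7 days, again with no overlap between the first and the last day (-1.03, SE 0.18, adjusted p = 0.0028). Hyou1 was at 8.99, 8.85 and 8.98 in GA 1 day, 9.04, 8.57 and 9.15 in GA 3 days and 8.12, 8.21 and 8.46 in GA 7 days (-0.68, adjusted p = 0.016). In Sham-GA it was at 9.09, 8.51 and 8.60 at 1 day, 8.27, 8.61 and 8.21 at 3 days and 8.02, 8.01 and 8.18 at 7 days (-0.66, adjusted p = 0.024). They were the only ones of the 32 to pass, 2 in each group, both lower at 7 days, where 425 of all genes passed lower in GA and 449 in Sham-GA (backgrounds of 2.94% and 3.11%).

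Several more genes showed no overlap between these days without being called. All 3 arrays at 7 days lay below all 3 at 1 day in 7 of the 32 genes in GA and in 10 in Sham-GA, against 18.4% and 18.1% of all genes. They lay above in 5 genes in GA (P4hb, Herpud1, Sec61b, Sec61g and Serp1) and in 0 in Sham-GA, against 16.7% and 10.5%. The GA shares were thus near those of all genes. All 9 chaperones had values below 0 at 7 days against 1 day in both groups, with medians of -0.41 in GA and -0.50 in Sham-GA. Creld2 was the lowest of them in Sham-GA (-0.91) and was not called. The translocon lay on the other side, with medians of 0.41 in GA and 0.34 in Sham-GA, and Sec61b was at 10.02, 9.85 and 10.13 in GA 7 days and at 9.24, 9.27 and 9.23 in GA 1 day (0.76, SE 0.34, adjusted p = 0.17). Ddit3 was at -0.77 in GA (adjusted p = 0.073) and -0.47 in Sham-GA, Hspa5 at -0.50 in GA and -0.32 in Sham-GA, and Xbp1 at 0.12 in GA and -0.11 in Sham-GA. Of the 12 fibroblast markers, 8 passed as higher at 7 days in GA and 8 in Sham-GA, where 5.66% and 3.46% of all genes did. Of the 10 neutrophil markers, 5 passed as lower in GA and 1 in Sham-GA, where 2.94% and 3.11% of all genes did. The neutrophil mean went from 7.12, 6.40 and 6.95 to 5.40, 5.28 and 5.39 in GA. In Sham-GA it went from 6.76, 5.64 and 5.43 to 5.28, 5.31 and 5.37. The part of these markers in the ER gene values was not tested.

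The calls of Hyou1 and, in GA, of Atf4 depended on single arrays. In GA none of the 32 passed without GA 1 day replicate 1 or 3 or without GA 7 days replicate 1 or 2. In Sham-GA, Atf4 passed with any 1 of the 6 arrays left out, and without Sham-GA 1 day replicate 1 it was at -1.08 (adjusted p = 0.01). Hyou1 no longer passed there without Sham-GA 1 day replicate 1 (-0.48, adjusted p = 0.1) or without any of the 3 Sham-GA 7 days arrays (-0.63 to -0.72).

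Between SCI and Sham-SCI the arrays overlapped in 27 of the 32 genes. The median log2 fold change was 0.05 over the 32 genes, 18 of them above 0, where over all 14456 genes the median was -0.02 and 46.2% lay above 0. None of the 32 was called, where 58 of all genes were (background 0.401%), and 3 had an unadjusted p under 0.05, against 14.6% of all genes. Ddit3 was the lowest, at 8.01, 7.88 and 7.72 in SCI and at 8.43, 8.65 and 8.53 in Sham-SCI, with no overlap (-0.67, SE 0.20, adjusted p = 0.16). Atf4 was at 10.15, 9.75 and 10.19 in SCI and at 10.46, 10.40 and 10.30 in Sham-SCI, also with no overlap (-0.36, SE 0.17, adjusted p = 0.36). Both belong to the PERK branch, of which Trib3 was at -0.10 with overlapping groups.

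The highest value after SCI was that of Sec61a1 (0.40), followed by Sec61b, Serp1 and Dnajc3, each at 0.38. Dnajc3 was at 8.81, 8.47 and 8.91 in SCI and at 8.48, 8.32 and 8.25 in Sham-SCI (0.38, SE 0.12, adjusted p = 0.16). Xbp1 was at 11.27, 11.30 and 11.28 in SCI and at 11.13, 11.14 and 10.96 in Sham-SCI (0.21, SE 0.11, adjusted p = 0.4). Ssr3 was the only other gene higher on each SCI array than on every Sham-SCI array (0.30, SE 0.11, adjusted p = 0.24), 2 of 32 genes with Xbp1, against 9.14% of all genes. The SCI arrays lay below in Ddit3, Atf4 and Dnajb9, against 13.1%. Hspa5 was at 11.09, 11.40 and 11.23 in SCI and 11.56, 11.25 and 11.20 in Sham-SCI (-0.10), Pdia4 was at 0.13, Pdia6 at -0.07, Dnajb11 at -0.26, Hyou1 at -0.30 and Herpud1 at 0.08. In Herpud1, SCI replicate 2 stood above its group at 10.99. The fibroblast marker mean was at 9.78, 10.13 and 10.39 in SCI and at 8.82, 8.57 and 8.74 in Sham-SCI, and the slow myofiber mean at 11.98, 12.11 and 11.63 in SCI and 13.15, 12.71 and 13.11 in Sham-SCI. These groups did not overlap in either list. The mean of satellite cell and regenerating fiber markers did not overlap either (8.33, 10.18 and 8.48 in SCI, 8.30, 8.25 and 8.29 in Sham-SCI). The fast myofiber mean did overlap, at 12.98, 12.42 and 12.96 in SCI and 9.92, 13.06 and 11.79 in Sham-SCI. So did the macrophage mean, at 8.34, 8.36 and 9.00 in SCI and 9.21, 7.14 and 7.82 in Sham-SCI. The part of the lists in the ER gene values was not tested.

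**Figure D5:**
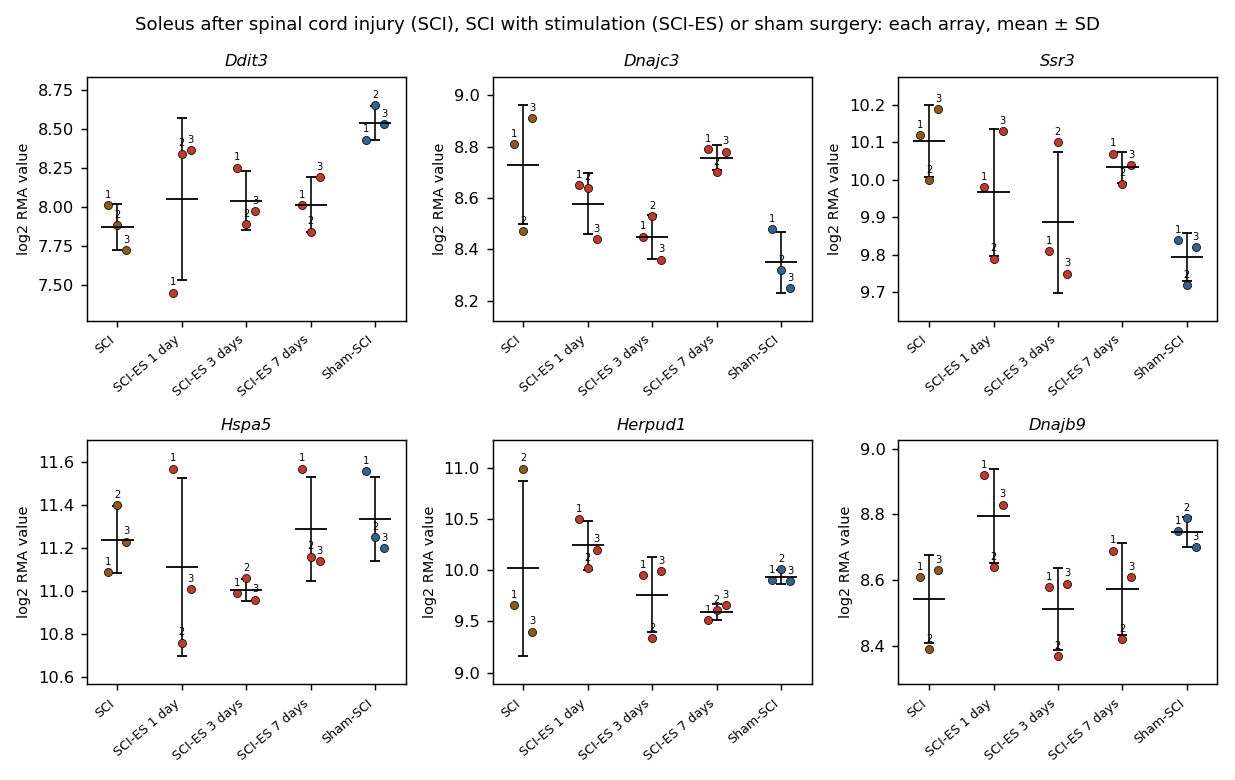
Log2 RMA values of 6 genes on each of the 15 arrays of the SCI experiment, SCI in brown, SCI-ES in red and Sham-SCI in blue, with replicate numbers, means and SD bars (n = 3). Ddit3 lies between 7.72 and 8.01 in SCI and between 8.43 and 8.65 in Sham-SCI, and SCI replicate 2 stands above its group in Herpud1 at 10.99.

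ES of muscle after SCI gave values close to 0 in these genes on each day. The 3 comparisons share the SCI arrays, which were unlike each other, with a mean r with their own group of -0.17, -0.16 and -0.02. Against SCI, the medians over the 32 genes were 0.00 at 1 day, -0.11 at 3 days and 0.04 at 7 days, with 16, 6 and 22 genes above 0, and over all genes they were 0.00, -0.01 and 0.01. None of the 32 passed at any day, and neither did any other gene (background 0% each), with adjusted p of at least 0.68. At an unadjusted p under 0.05 stood 1 of the 32 genes at 1 day, 1 at 3 days and 0 at 7 days, against 7.28%, 3.07% and 2.84% of all genes.

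At 1 day of ES, Dnajb9 was at 8.92, 8.64 and 8.83 in SCI-ES, all above the 8.61, 8.39 and 8.63 in SCI (0.25, SE 0.11, adjusted p = 0.68), which was so in 1 of 32 genes, against 6.02% of all genes. Sdf2l1 (0.36) and Atf6 (0.28) had the highest values, and Calr (-0.17) the lowest, followed by Canx and Trib3 (both -0.16). Replicate 1 of SCI-ES 1 day was the highest of its group in 27 of the 32 genes. Ddit3 was at 7.45, 8.34 and 8.36 in SCI-ES 1 day and at 8.01, 7.88 and 7.72 in SCI (0.18), Hspa5 was at -0.12, Xbp1 at -0.08 and Atf4 at 0.01. Herpud1 was at 0.22, a value that rests on an SCI group in which replicate 2 stood apart at 10.99. Dnajb11 was at 0.20, Pdia6 at 0.21, Pdia4 at -0.02 and Sec61b at -0.02.

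At 3 days of ES the lowest values were those of Dnajc3 and Derl1, both -0.28, and the highest those of Sec61g (0.21) and Sdf2l1 (0.18). Dnajc3 was at 8.45, 8.53 and 8.36 in SCI-ES 3 days and at 8.81, 8.47 and 8.91 in SCI (SE 0.12, adjusted p = 1). Hspa5 was at 10.99, 11.06 and 10.96 in SCI-ES 3 days, just below the 11.09, 11.40 and 11.23 in SCI (-0.24, SE 0.19, adjusted p = 1). Hspa5, Xbp1 and Derl1 were the 3 of 32 genes with all SCI-ES arrays below all SCI arrays, against 5.57% of all genes, and Sec61g the 1 above, against 3.55%. Atf4 was at -0.11, Ddit3 at 0.17, Herpud1 at -0.26, Pdia4 at -0.17, Pdia6 at -0.02, Dnajb11 at -0.16 and Sec61b at -0.11.

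At 7 days of ES, Herpud1 was at 9.51, 9.61 and 9.66 in SCI-ES and at 9.66, 10.99 and 9.40 in SCI (-0.42, adjusted p = 1), where SCI replicate 2 stood apart from the other SCI arrays. The next lowest was Ssr2 (-0.13), and Serp1 (0.27) and Manf (0.21) were the highest. Hspa5 was at 0.05, Xbp1 at 0.00, Atf4 at 0.10 and Ddit3 at 0.14. Only in Ssr1 (0.11) did all SCI-ES arrays lie above all SCI arrays, against 4.29% of all genes. Between SCI-ES 7 days and SCI-ES 1 day none of the 32 genes or of all genes passed (background 0%), and 2 of the 32 had an unadjusted p under 0.05, against 12.1% of all genes. Herpud1 was the lowest, at 9.51, 9.61 and 9.66 at 7 days and at 10.50, 10.02 and 10.20 at 1 day, with no overlap (-0.65, SE 0.31, adjusted p = 0.43), which was so in 1 of the 32 genes, against 8.79% of all genes. Atf6 was the next lowest (-0.38), Serp1 (0.40) and Calr (0.21) were the highest, and Hspa5 was at 0.18, Xbp1 and Atf4 at 0.08 and Ddit3 at -0.04.

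The ES effect was set against the GA effect on the same day in a fit of all 33 arrays. At 3 days the ES effect minus the GA effect had a median of -0.68 over the 32 genes, 27 of them below 0, where the median over all genes was 0.01. The lowest values were those of Creld2 (-1.28, SE 0.52, adjusted p = 0.48) and Sec61b (-1.16, SE 0.49, adjusted p = 0.48), and the highest that of Ddit3 (0.53), followed by Atf4 and Herpud1 (both 0.08). Hspa5 was at -0.92 (SE 0.31, adjusted p = 0.48) and Xbp1 at -0.40. None of the 32 passed at any day (backgrounds of 0.0554% at 1 day and 0% at 3 and 7 days), although 15 had an unadjusted p under 0.05 at 3 days, against 9.47% of all genes. With Sham-GA 1 day replicate 1 and Sham-GA 3 days replicate 2 left out, Ssr3 passed at 3 days (-0.85, SE 0.19, adjusted p = 0.05), where 0.152% of all genes passed in that direction. Both were chosen after the values were seen, and leaving out the 3 days array, which lies near the GA arrays, widens this difference by construction. At 1 day the median was -0.03 and 2 of the 32 had an unadjusted p under 0.05, against 13% of all genes. Herpud1 was the highest (0.94, SE 0.37, adjusted p = 0.26), and without SCI replicate 2 it passed (1.43, adjusted p = 0.027), where 15 of all genes passed in that direction (0.104%). SCI replicate 2 held the highest Herpud1 value of the SCI experiment (10.99), so that leaving it out raises this difference by construction. After Herpud1 came Derl1 (0.37), Serp1 (-0.47) and Hsp90b1 (-0.44) were the lowest, and Hspa5 was at -0.40, Xbp1 at -0.05, and Atf4 and Ddit3 both at 0.13. At 7 days the median was -0.15, with Ddit3 (0.40) and Dnajb9 (0.09) highest and Ssr2 (-0.49) and Herpud1 (-0.41) lowest, Hspa5 at -0.05, Xbp1 at -0.19 and Atf4 at -0.15, and none of the 32 had an unadjusted p under 0.05, against 3.14% of all genes.

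Levels also differed between the 2 experiments, a comparison added after the values were seen. The mean of the 3 Sham-GA groups against Sham-SCI was above 0 in 27 of the 32 genes, with a median of 0.36, where the median over all genes was -0.02. Sec61a1 (1.09, SE 0.34, adjusted p = 0.081), Sec61b (1.03, SE 0.28, adjusted p = 0.065) and Serp1 (1.03, SE 0.31, adjusted p = 0.078) had the highest values and Herpud1 (-0.38) and Ddit3 (-0.30) the lowest, and Hspa5 was at 0.48, Xbp1 at 0.21 and Atf4 at -0.07. None passed with all arrays, where 39 of all genes did (background 0.27%), and 18 of the 32 had an unadjusted p under 0.05, against 23.1% of all genes. Hspa5 ran from 11.37 to 12.57 (median 12.00) over the 18 arrays of the GA experiment and from 10.76 to 11.57 (median 11.16) over the 15 of the SCI experiment. Without Sham-SCI replicate 1, the highest of its group in 26 of the 32 genes, 7 passed (P4hb, Pdia3, Pdia4, Pdia6, Sec61a1, Sec61b and Serp1), all higher in Sham-GA, where 2.68% of all genes were. Leaving out that array raises this difference by construction, and 0 passed without Sham-SCI replicate 2 or without replicate 3. Leaving out a Sham-GA array also gave calls, 7 without 3 days replicate 1, 3 without 1 day replicate 2 and 2 without 7 days replicate 1, all higher in Sham-GA, where 2.15%, 0.81% and 1.09% of all genes passed in that direction. These arrays were the lowest of their groups in 17, 25 and 22 of the 32 genes, so that leaving each out raises the difference by construction. With any other single Sham-GA array left out, 0 passed. Macrophage and fibroblast markers were higher in Sham-GA in 11 of 11 and 11 of 12 genes (medians of 1.29 each, 1 fibroblast gene called), and the 9 fast myofiber markers were all lower, with a median of -2.61 and 4 called. The fast myofiber mean was at 9.92, 13.06 and 11.79 in Sham-SCI, a wide spread, and their part in the ER gene values was not tested. The experiments were separate and differ in surgery and its timing, so that experiment and condition cannot be told apart.

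Other genes of the pathway, 115 of them in 7 lists, gave the context at 3 days of GA. With all arrays none passed, 93 of the 115 had values above 0 and the median was 0.29. Without Sham-GA 3 days replicate 2, 37 passed, all higher in GA, where 5.78% of all genes did so. Leaving out that array, which lies near the GA arrays, widens the difference by construction. Collagen folding and modification had the most, 14 of 16, with P4ha3, a prolyl 4-hydroxylase (2.71, adjusted p = 0.014), Plod2, a lysyl hydroxylase (2.08, adjusted p = 0.014), and Fkbp10, a collagen chaperone (2.01, adjusted p = 0.016), the furthest. Folding enzymes outside the 35 genes followed with 7 of 20, such as the immunophilins Fkbp11 (1.22, adjusted p = 0.025) and Ppib (1.14, adjusted p = 0.029). ER exit and retrieval had 6 of 17, with Kdelr3, a receptor that returns chaperones to the ER (1.89, adjusted p = 0.014), and oligosaccharyltransferase 5 of 10, with Tusc3 (1.37, adjusted p = 0.022). In other ER-associated degradation 2 of 18 passed, Edem2 and Selenos, in other translocation and signal peptidase 1 of 16, Tram1 (1.25, adjusted p = 0.021), and in other stress sensors, factors and targets 2 of 18, Asns (2.15, adjusted p = 0.021), the asparagine synthetase, and Creb3l1 (1.71, adjusted p = 0.016), a relative of ATF6. At 1 day of GA with all arrays Atf3, a stress-induced factor, was the 1 of the 115 that passed (2.05, adjusted p = 0.048), where 0.0554% of all genes did. In SCI against Sham-SCI and in SCI-ES against SCI none of the 115 passed, where 0.401% and 0% of all genes did. At 7 days against 1 day 22 of the 115 passed as higher and 3 as lower in GA, where 5.66% and 2.94% of all genes did. In Sham-GA 8 passed as higher and 6 as lower, where 3.46% and 3.11% of all genes did. Collagen folding and modification again had the most, 10 of 16 higher in GA and 5 of 16 in Sham-GA, with Fkbp7 at 2.65 in GA (adjusted p = 0.00017) and 1.65 in Sham-GA (adjusted p = 0.0061). Of the stress genes, Nupr1, a stress-induced regulator, rose by 2.83 in GA (adjusted p = 0.00035) and 1.45 in Sham-GA (adjusted p = 0.028), and Ppp1r15a (GADD34), which restores translation after PERK signaling, was at -1.20 in GA (adjusted p = 0.00031) and -0.76 in Sham-GA (adjusted p = 0.0091).

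Set beside the promoter letters, the 11 measured genes with an ERSE or ERSE-II match had a median log2 fold change of 0.62 at 3 days of GA, from Herpud1 (-0.34) to Creld2 (1.06). The 15 with a promoter in the table and neither match had a median of 0.46, from Ddit3 (-0.36) to Serp1 (1.08). The ranges overlapped almost fully, and genes of both kinds were among the highest and the lowest.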

How the data were processed

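Soleus RNA was hybridised to 1 Affymetrix rat array per animal. The authors deposited log2 expression values, background-corrected, normalized and summarised per transcript cluster by RMA (oligo package). Of 29214 rows, 15310 had 1 gene symbol in the platform annotation, and for 527 genes with more than 1 row the brightest was kept. RMA sets all arrays to a common distribution, so a shift of all genes together cannot be seen. The number of arrays limits the precision, and 3 against 3 arrays cannot reach an exact permutation p below 0.10. Differences were fitted with limma 3.58.1 (R 4.3.3) on group means, separately for the 15 SCI arrays and the 18 GA arrays and over all 33 arrays for differences between experiments. Benjamini-Hochberg adjustment covered 14456, 14451 and 14453 genes. The fits were tested on simulated data in which every array had the same spread, which cannot show the effect of an array that stands apart. Tables and figures used Python 3.11.15 and matplotlib 3.10.9. In all, 14 comparisons follow the design and 3 were added after the values were seen. Each array was left out in turn, and the alternatives were other filters, centring, quantile normalization, array weights, another variance prior, the methods' test, the mean of a gene's rows and a replicate block. Named genes are those called in any comparison, the 2 highest and 2 lowest of each comparison of the design, those the study lists, Hspa5, Ddit3, Xbp1 and Atf4 throughout, and up to 3 called genes of each other list. The members and lists were chosen with earlier results of these data known. Sample labels gave the days. Rows with several symbols or none were left out.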

Additional observations from a re-analysis of the deposited data

How the results depend on the processing

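In the 14 comparisons of the design with all arrays no ER gene was called, and this held under no filter on the mean, a mean of at least 6, the variance filter, centring on array medians, a second quantile normalization, no fold minimum, fits of only the compared groups or of all 33 arrays, a trended and robust prior, and the mean of a gene's rows. With array weights the counts of ER genes called, of 32 and with the share of all genes called in parentheses, were 1 for SCI versus Sham-SCI (4.84%), 1, 21 and 6 for GA at 1 day, at 3 days and on average (11.3%, 17.9% and 6.66%), 14 and 1 for the GA effect at 3 and at 7 days minus 1 day (12.4% and 4.53%), 2 and 23 for ES minus GA at 1 and 3 days (11.4% and 21.4%), 8 and 1 for GA and Sham-GA at 7 days versus 1 day (14% and 10.6%), and 8 for Sham-GA versus Sham-SCI (5.53%). The counts of 1 and 2 are smaller shares than these. The methods' test, unadjusted, called 1, 9 and 1 of 25 ER genes for GA at 1 day, at 3 days and on average, against 6.16%, 8.75% and 3.97% of all genes, and 0 after Benjamini-Hochberg adjustment. With both arrays numbered 2 at 3 days left out, GA at 3 days gave 22, and with the Sham-GA arrays that stand apart (1 day replicate 1, 3 days replicate 2) left out, the mean GA effect gave 7 and ES minus GA at 3 days gave 1, choices made after seeing the data.

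Without 1 array at a time, the counts ran from 0 to 1 for GA at 1 day, 0 to 17 at 3 days, 0 to 4 on average, 0 to 1 for ES minus GA at 1 day, 0 to 3 for GA and 1 to 3 for Sham-GA at 7 days versus 1 day, and 0 to 7 for Sham-GA versus Sham-SCI, and were 0 in the others. Over all genes the same fits called 1 to 182, 0 to 1286, 0 to 493, 1 to 102, 865 to 1264, 455 to 902 and 0 to 493, in that order. Sham-GA at 7 days versus 1 day gave 4 with no fold minimum and 1 in a fit of only its groups. GA at 7 days versus 1 day gave 5 with arrays centred on their medians and 4 in a fit of only its groups. Sham-GA versus Sham-SCI gave 3 with the variance filter and 1 with centring. Centring moved the median of all genes to -0.14 at GA 3 days, against -0.03 without it, and that of the ER genes to 0.46, against 0.56. Of 2386 values of single genes under these alternatives, 2225 kept their direction and side of the threshold, 15 lost the call, 146 gained it and 0 changed the sign of a call. The cause of these shifts was not tested.

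The replicate numbers did not pair the arrays. Arrays of the same number had a mean correlation of their deviations from group means of -0.0369 in the SCI experiment and -0.0469 in the GA experiment, and 5 of 15 and 5 of 18 arrays correlated best with their own number. With the replicate block, 0 ER genes were called in the comparisons of the design and in Sham-GA versus Sham-SCI, and 2 each in GA and Sham-GA at 7 days versus 1 day.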
